A study of Oryctolagus cuniculus with 36 samples.

Results

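Lipoprotein genes were examined in RNA sequencing data from rabbit liver, through 10 genes of apolipoproteins and lipoprotein assembly among the 23394 genes of the deposited table: APOA1, APOA4, APOB, APOE, APOC3, APOH, APOM, MTTP, LCAT and ABCA1. All 10 symbols had a row of their own and passed the filter on low counts. The genes were selected on their levels in the FK and WT groups, above all on APOA1, which was low in wild-type liver and high in some FK sets. That contrast is therefore described here with no test of these genes, and APOA1 is described without a test throughout.

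The series concerns CRISPR/Cas9 gene correction, in newborn rabbits, of hereditary tyrosinemia type I, the loss of fumarylacetoacetate hydrolase (FAH). Titles alone define the groups FA, FK and WT (wild type): the labels do not spell out FA and FK, give no age or strain, and carry the same disease description for every sample, WT included. Livers were trypsinized before RNA extraction. Each group holds 3 numbered sets of 4 libraries, and the 4 libraries of a set were summed to 1 replicate, so n = 3 per group. Nothing in the labels ties sets to separate animals, so p-values measure the spread between sets, which may be technical. In the main fit this spread is pooled over the 3 groups.

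Liver packs triglyceride and cholesterol into very low density lipoproteins, each built on 1 molecule of APOB that the microsomal transfer protein MTTP loads with lipid. APOC3 and APOE on their surface govern how fast the particles are broken down and taken up again. High density lipoproteins follow another route: ABCA1 exports cholesterol and phospholipid to APOA1, and LCAT esterifies that cholesterol on the particle. In rabbits, APOA1 mRNA is known to be made mainly in the intestine rather than in the liver.

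Library totals were 15.1 to 22.5 M counts in FA, 11.7 to 16.1 M in FK and 14.2 to 18.7 M in WT, and sets held 53.2 to 78.6 M. Levels are given as counts per M counts (CPM) after scaling with TMM, edgeR's correction for library composition, and are not corrected for gene length. FAH averaged 23.3 ± 3.27 CPM in FA and 14.3 ± 2.28 CPM in FK, against 242 ± 26.9 CPM in WT (SD, n = 3 each). Hepatocyte markers were abundant in every set, at a summed 230041 to 280188 CPM in FA, 159404 to 252162 CPM in FK and 202421 to 268485 CPM in WT, with 9 of 10 in the table. Most of each sum was ALB, and single markers differed: TTR, ASGR1 and ASGR2 were lowest in FK sets 1 and 2, and TF, CPS1 and AHSG highest there. FK sets 1 and 2 stood apart from the other 7 sets: in 6301 of 14939 genes tested (42.2%) they held the 2 highest or the 2 lowest levels. Levels in the FK sets are therefore mostly given set by set, and several fitted differences with and without these sets.

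APOA1, the main protein of high density lipoproteins, was present in every library and varied most of the 10 genes. It stood at 62.1, 115 and 62.6 CPM in FA sets 1, 2 and 3, at 2716, 2564 and 74.8 CPM in FK sets 1, 2 and 3, and at 28.0, 34.2 and 49.2 CPM in WT sets 1, 2 and 3. FK sets 1 and 2 were thus high, while FK set 3 lay between the FA values and every FA and FK set lay above every WT set. These levels rested on 3742 to 7109 counts per set in FA, on 169949, 169072 and 4426 counts in the FK sets and on 1750 to 3040 counts in WT, so APOA1 was low in wild-type liver but well within detection.

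Relative to the WT mean, APOA1 was 73.1-fold in FK set 1, 69.0-fold in FK set 2 and 2.01-fold in FK set 3, against 1.67-, 3.10- and 1.69-fold in the FA sets. Libraries of a set agreed closely. Single libraries ran from 53.6 to 120 CPM in FA (median 65.4, 12 libraries), from 66.8 to 2983 CPM in FK (median 2391, 12 libraries) and from 24.9 to 52.6 CPM in WT (median 34.0, 12 libraries). In FK set 1 the 4 libraries lay between 2306 and 2983 CPM, in FK set 2 between 2339 and 2840 CPM, and in FK set 3 between 66.8 and 89.8 CPM. The fitted log2 difference of FK minus WT was 5.59 (SE 1.13). It was 6.13 without FK set 3 and 0.98 with FK sets 1 and 2 left out, so the group value describes no single set. In bulk tissue, fewer cells of a type and less RNA per cell cannot be told apart.

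**Figure D1:**
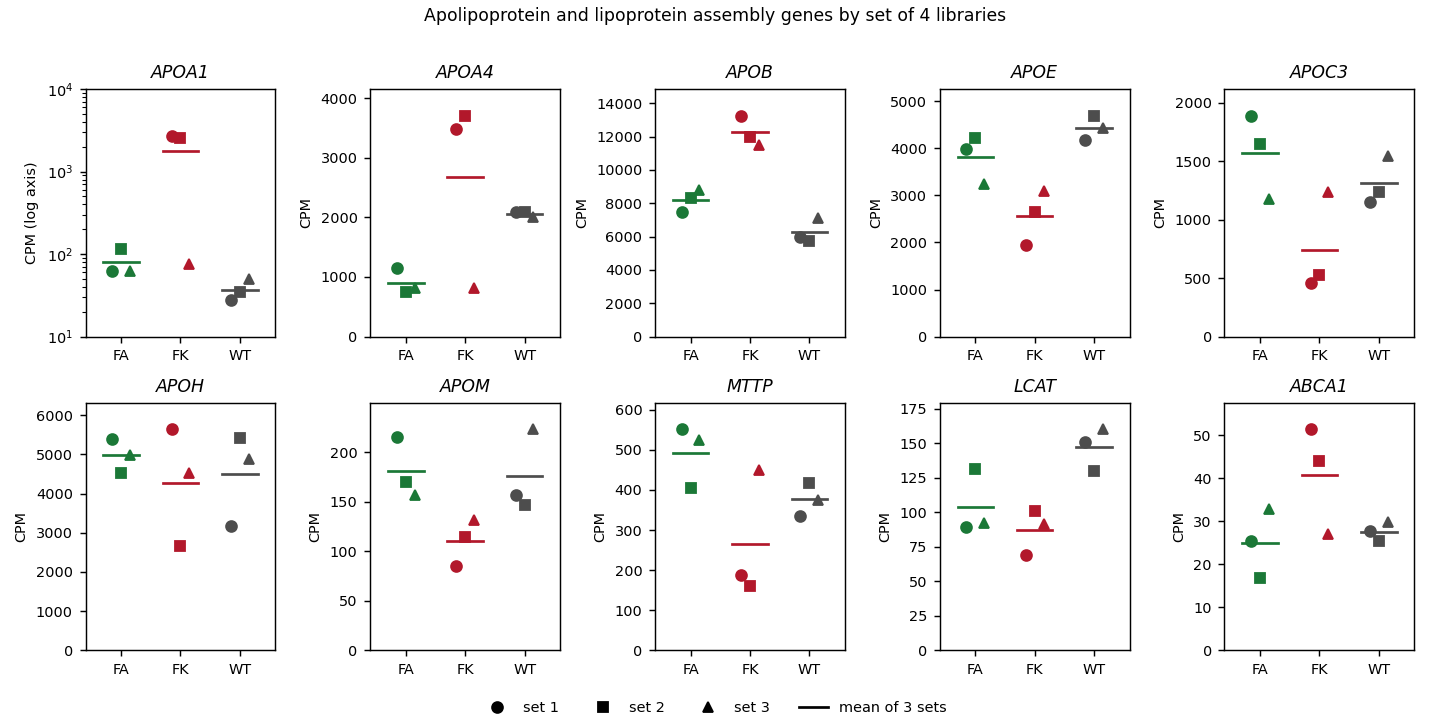
Level of each of the 10 genes in CPM (vertical axes, starting at 0 except for APOA1, whose axis is logarithmic) in the 3 sets of FA, FK and WT. Symbols mark the set number and lines the mean of 3 sets; FK sets 1 and 2 lie at 2716 and 2564 CPM of APOA1, while FK set 3, at 74.8 CPM, lies near the FA sets.

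APOA4, an apolipoprotein of lipid-rich particles and of high density lipoproteins, differed between groups in another way. Its level was 1149, 753 and 807 CPM in FA sets 1, 2 and 3, 3491, 3708 and 813 CPM in FK sets 1, 2 and 3, and 2090, 2082 and 2012 CPM in WT sets 1, 2 and 3. All FA sets and FK set 3 lay below the narrow WT range, and FK sets 1 and 2 lay above it. FA averaged 903 ± 215 CPM against 2061 ± 42.9 CPM in WT (SD, n = 3 each), a log2 difference of -1.19 (SE 0.54) that did not pass edgeR's quasi-likelihood test (adjusted p = 0.497). By edgeR its adjusted p was 0.0515 without FK set 3 and 0.0554 with FA and WT fitted alone. In a limma fit of single libraries, with set membership as a random effect, it was 0.0159. That fit shares a within-set correlation over all genes, so libraries count partly as replicates.

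APOB, the structural protein of very low density lipoproteins, was high in all 3 FK sets. Levels were 7455, 8339 and 8789 CPM in FA, 13265, 11993 and 11497 CPM in FK and 6005, 5752 and 7105 CPM in WT. No FK set overlapped an FA or WT set, and FK set 3 lay close to FK set 2. FK averaged 12251 ± 912 CPM against 6287 ± 719 CPM in WT (SD, n = 3 each), a log2 difference of 0.96 (SE 0.43) that was 0.99 without FK set 3 and 0.84 with FK sets 1 and 2 left out. FA lay above WT as well, with no overlap, by 0.38 on the log2 scale (SE 0.42, edgeR adjusted p = 0.82).

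MTTP, which loads lipid onto APOB, did not follow APOB. It stood at 551, 404 and 524 CPM in FA, at 189, 160 and 450 CPM in FK and at 336, 417 and 376 CPM in WT. FK sets 1 and 2 were the lowest of the 9 sets, and FK set 3 was above all WT sets. The ratio of APOB counts to MTTP counts was accordingly 13.5, 20.6 and 16.8 in the FA sets, 70.0, 74.8 and 25.5 in the FK sets, and 17.9, 13.8 and 18.9 in the WT sets. These are ratios of counts, not of molecules, and only their change between sets can be read.

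APOC3, an inhibitor of lipoprotein lipase and of particle uptake, was low in the same FK sets in which APOA1 was high. Its level was 1892, 1646 and 1177 CPM in FA, 460, 530 and 1240 CPM in FK and 1156, 1234 and 1549 CPM in WT. FK set 3 lay within the WT range and FK sets 1 and 2 at 35.0% and 40.4% of the WT mean. APOE, the ligand by which remnant particles bind receptors of the LDL receptor family, was at 3979, 4216 and 3253 CPM in FA, 1954, 2649 and 3090 CPM in FK and 4189, 4697 and 4425 CPM in WT. All 3 FK sets were below all FA and WT sets. The log2 difference of APOE, FK minus WT, was -0.79 (SE 0.37), and -0.55 with FK sets 1 and 2 left out.

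LCAT and APOM, both of high density lipoproteins, were lower in all FK sets than in any WT set. LCAT, the cholesterol-esterifying enzyme that APOA1 activates, stood at 89.5, 131 and 92.0 CPM in FA, 68.7, 101 and 91.7 CPM in FK and 151, 130 and 160 CPM in WT. The FK sets lay below the WT sets, by -0.75 on the log2 scale (SE 0.24), and by -0.71 with FK sets 1 and 2 left out. APOM, which carries sphingosine 1-phosphate on these particles, was at 215, 170 and 157 CPM in FA, 85.5, 114 and 132 CPM in FK and 157, 147 and 223 CPM in WT. All FK sets of APOM were below all FA and WT sets, whereas FA and WT overlapped.

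ABCA1, the exporter that supplies APOA1 with lipid, was at 25.3, 16.9 and 32.9 CPM in FA, 51.3, 44.0 and 27.0 CPM in FK and 27.6, 25.4 and 29.7 CPM in WT. FK sets 1 and 2 were the highest of the 9 sets, and FK set 3 lay within the WT range. APOH, a phospholipid-binding plasma protein also called beta-2-glycoprotein I, showed no order of groups, at 5406, 4537 and 4978 CPM in FA, 5638, 2664 and 4521 CPM in FK and 3176, 5417 and 4885 CPM in WT. Its lowest FK and lowest WT set lay below every FA set. The 4 libraries of FK set 2 varied by 24.6% (coefficient of variation) for APOH, the largest value among 90 pairs of gene and set, whose median was 6.71%.

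**Figure D2:**
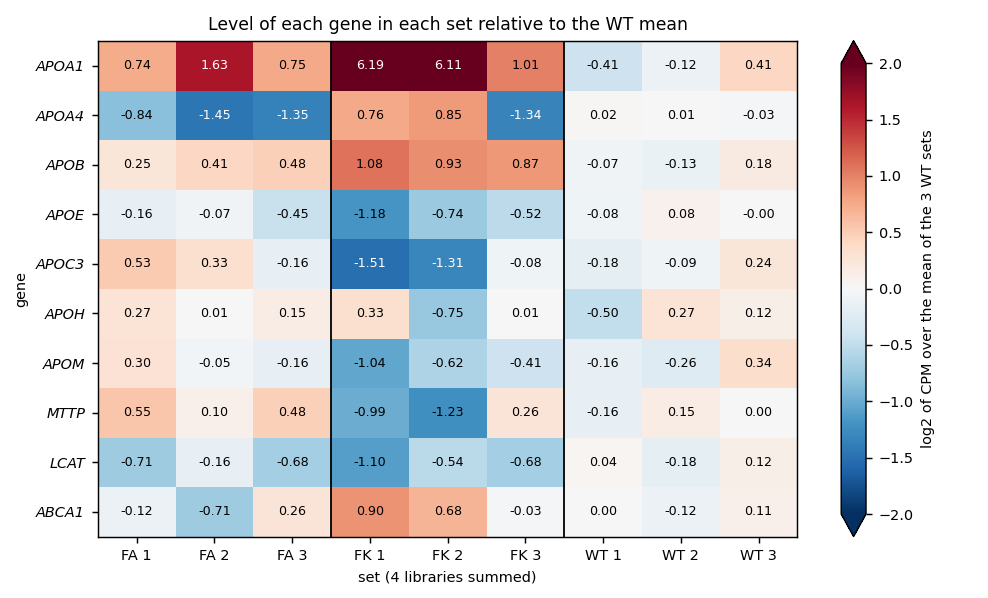
Log2 of the CPM of each gene in each set over the mean of the 3 WT sets (numbers and colour, the colour scale ending at -2 and 2; columns are the FA, FK and WT sets). APOA1 and APOC3 run opposite ways in FK sets 1 and 2, with APOA1 at 6.19 and 6.11 and APOC3 at -1.51 and -1.31, while APOB is high in all 3 FK sets.

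FK sets 1 and 2 together held the 2 highest levels of APOA1, APOA4, APOB and ABCA1 and the 2 lowest of APOE, APOC3, APOM and MTTP. That is 8 of the 10 genes, beside 42.2% of all genes tested, and since the genes were selected on these levels nothing is read from the count. FK set 3 shared with FK sets 1 and 2 a position outside the WT range, on the same side, for APOA1, APOB, APOE, APOM and LCAT. The 10 genes together took 1.89%, 2.00% and 1.90% of all counts in the FA sets, 2.99%, 3.04% and 2.10% in the FK sets and 1.78%, 1.95% and 1.91% in the WT sets. APOA1 alone took 0.291% and 0.318% in FK sets 1 and 2.

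Genes were also counted whose 3 sets of one group all lay on one side of the other group. FA and WT did not overlap for APOA1 and APOB, which were higher in FA, and for APOA4, which was lower, beside 24.9% of all genes. FK and WT did not overlap for APOA1 and APOB, higher in FK, and for APOE, APOM and LCAT, lower in FK, beside 27.3% of all genes in the contrast that chose the members. FA and FK did not overlap for APOE and APOM, higher in FA, and for APOB, lower in FA, beside 17.2% of all genes. Of the 10 genes these are 3, 5 and 3, and since the genes were selected on FK and WT levels nothing is read from these counts.

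FA minus WT was not the contrast of the selection, though it shares the WT sets with it. Here 0 of the 9 genes other than APOA1 passed edgeR's quasi-likelihood test at an adjusted p under 0.05, beside 25 of 14939 genes (0.167%) over the whole table. The unadjusted p of each of these 9 genes was 0.0552 or more, while 1518 genes of the table had one under 0.05. LCAT, at a log2 difference of -0.49 (SE 0.24, adjusted p = 0.507), and APOA4 had the smallest p-values. MTTP was higher in FA by 0.39 (SE 0.39, adjusted p = 0.801), and APOM differed by 0.04 (SE 0.26, adjusted p = 0.977). DESeq2 also called 0 of the 9, beside 335 of 19913 genes. The limma fit of single libraries, where libraries count partly as replicates, called APOA4, beside 440 of 12775 genes. The spread of the main fit comes from all 9 sets, the FK sets included. With FA and WT fitted alone, edgeR called 235 genes of the table and 0 of the 9.

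Between FA and FK the test called 0 of the 9 genes and 0 of all 14939 genes (0.0%), although 3275 genes had an unadjusted p under 0.05. DESeq2 called 1778 of 19913 genes, 2 of them among the 9. The comparison of FA and FK shares the FK sets with the contrast that chose the members, so nothing is read from calls among the 9 in any fit. The differences and p-values below are a description. The differences of FA minus FK were -1.56 for APOA4 (SE 0.55, adjusted p = 0.153), 1.08 for APOC3 (SE 0.44, adjusted p = 0.201), 0.89 for MTTP (SE 0.40, adjusted p = 0.232) and 0.71 for APOM (SE 0.26, adjusted p = 0.17). ABCA1 stood at -0.70 (SE 0.30, adjusted p = 0.211).

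The number of calls between FA and FK depended on the method and on FK set 3. The limma fit of single libraries, where libraries count partly as replicates, called 2169 of 12775 genes, 6 of them among the 9. Without FK set 3, edgeR called 5324 genes (34.5%) of all genes tested and 5 of the 9. FK sets 1 and 2, which then make up the FK group, are the sets whose levels chose the genes, so nothing is read from the 5 and their differences are a description. The log2 difference of FA minus FK was then 1.69 for APOC3, 1.51 for MTTP, 0.87 for APOM, -1.98 for APOA4 and -0.91 for ABCA1. Between FA and WT the same fit called 0 of the 9 genes, beside 247 genes (1.6%) of the table. With FK sets 1 and 2 left out, a choice made after their values were seen, FK is 1 set that is assumed to vary like the FA and WT sets, and the absence of calls in that fit is not read as a result. The differences of FA minus FK were there 0.38 for APOC3, 0.17 for MTTP, 0.49 for APOM, 0.19 for APOA4 and -0.07 for ABCA1.

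The gene order of the RefSeq annotation of assembly mOryCun1.1 places APOA5, APOA4, APOC3 and APOA1 side by side, a cluster known for shared regulatory elements in other mammals. The 4 neighbours did not move alike in FK. Over the WT mean, APOA5 was 1.09-, 0.59- and 0.805-fold in FK sets 1, 2 and 3, APOA4 1.69-, 1.80- and 0.394-fold, and APOC3 0.35-, 0.404- and 0.945-fold. SIK3, a kinase gene on the far side of APOA1, was at 1.74-, 1.84- and 1.48-fold. In FA sets 1, 2 and 3, SIK3 was at 1.6-, 1.25- and 1.11-fold and APOA5 at 0.858-, 0.359- and 0.488-fold. The ratio of APOA1 counts to APOC3 counts was 0.0328, 0.07 and 0.0532 in the FA sets, 5.91, 4.84 and 0.0603 in the FK sets and 0.0242, 0.0278 and 0.0318 in the WT sets. The build behind the deposited counts is not given in the sources used here, so no coordinates are printed.

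A cluster around APOE showed a further pattern. APOC4 was at 0.219-, 0.205- and 0.503-fold of the WT mean in FK sets 1, 2 and 3, APOC1 at 0.555-, 0.633- and 0.538-fold and APOE at 0.44-, 0.597- and 0.696-fold, all below 1 in every FK set. APOC4 and APOE were below 1 in FA sets 1, 2 and 3 too, at 0.804-, 0.61- and 0.576-fold and at 0.897-, 0.95- and 0.733-fold. APOC1 was there at 1.39-, 1.16- and 0.66-fold. APOC2, the activator of lipoprotein lipase and a neighbour of APOC4, was at 1.07-, 1.34- and 0.542-fold. Whether reads near shared gene ends were assigned by strand is not stated, so values of adjacent genes on opposite strands are uncertain.

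**Figure D3:**
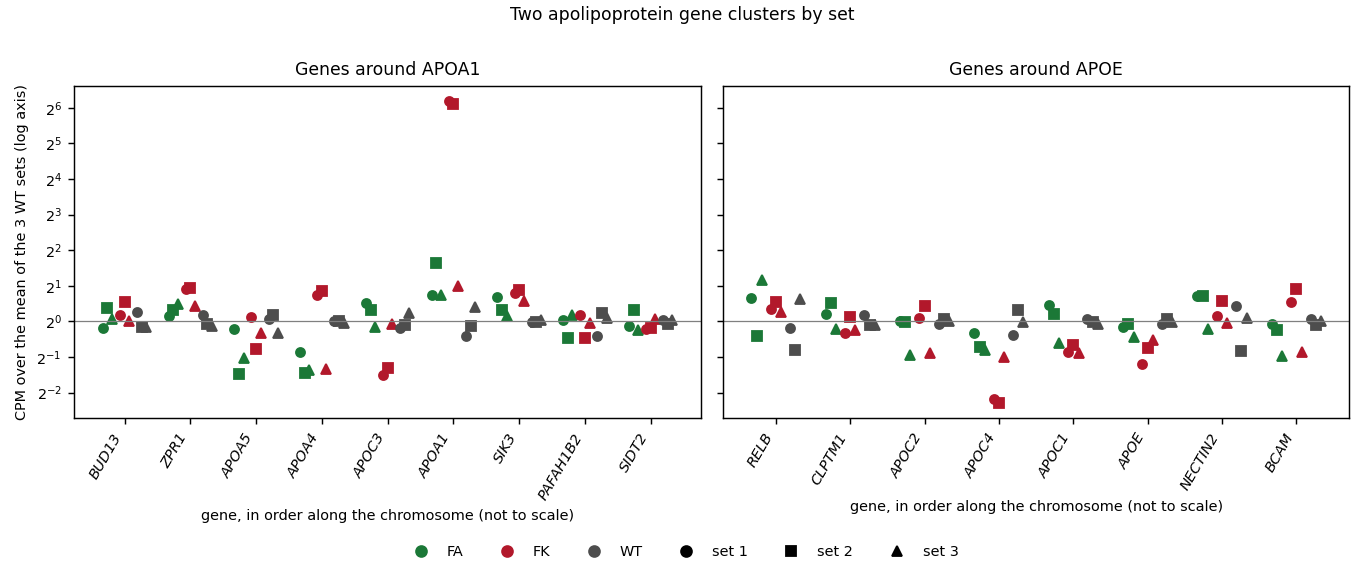
CPM over the mean of the 3 WT sets (logarithmic axis) for genes around APOA1 and around APOE, in RefSeq order along the chromosome and not to scale; colours mark FA, FK and WT and symbols the set number. Next to APOA1, at 73.1- and 69.0-fold in FK sets 1 and 2, APOC3 lies at 0.35- and 0.404-fold and BUD13, ZPR1, SIK3, PAFAH1B2 and SIDT2 lie between 0.726- and 1.92-fold.

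Likeness to APOA1 was measured by the root mean square difference of centred log2 CPM over the 9 sets. The 5 closest genes of 7173 candidates were CA2, ALDH1L2, S100A12, S100A8 and S100A9, at 0.30, 0.37, 0.39, 0.48 and 0.55. CA2, a carbonic anhydrase, was at 8.17, 18.9 and 9.15 CPM in FA, 592, 503 and 16.7 CPM in FK and 5.65, 5.40 and 12.6 CPM in WT. ALDH1L2, a mitochondrial enzyme of folate metabolism, was at 0.449, 0.81 and 0.619 CPM in FA, 34.5, 29.4 and 0.777 CPM in FK and 0.463, 0.435 and 0.518 CPM in WT. S100A8, S100A9 and S100A12 are calcium-binding proteins abundant in neutrophils. The closest of the other 9 genes was APOA4, at 2.01 and rank 713.

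Marker lists of blood cells moved with APOA1. Neutrophil markers, 8 of 9 in the table, summed to 18.9 to 41.2 CPM in FA, to 1195, 2057 and 27.8 CPM in FK sets 1, 2 and 3 and to 16.5 to 27.7 CPM in WT, and all 8 were higher in FK sets 1 and 2 than in every other set. Erythroid markers, 10 of 10 in the table, summed to 7.56 to 22.6 CPM in FA, 628, 1738 and 14.6 CPM in FK and 17.9 to 80.7 CPM in WT, again with all 10 highest in FK sets 1 and 2. Over all genes tested, 22.0% were highest in FK sets 1 and 2. Of the markers tested, so were 3 of 9 hepatocyte, 3 of 8 macrophage and 3 of 6 stellate markers. The counts were 1 of 4 for enterocyte, 1 of 6 for endothelial and 0 of 4 for cholangiocyte markers. FK set 2 held higher neutrophil and erythroid sums than FK set 1, while APOA1 was 2564 CPM in FK set 2 and 2716 CPM in FK set 1. The part of these cells in the APOA1 level was not tested.

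Markers of the intestinal lining, the known site of rabbit APOA1, were few. The 9 enterocyte markers summed to 7.85 to 9.61 CPM in FA, 15.2, 24.4 and 5.71 CPM in FK and 8.67 to 15.5 CPM in WT. CDX1 had 0 counts in every library, SI had 1 count and CDX2 had 9 counts in the whole series, and FABP2 was at 0 in FK sets 1 and 2. ALPI had the most counts of the 9 and made up most of the FA and WT sums, at 6.41 to 6.99 CPM in FA, 2.11, 5.67 and 3.62 CPM in FK and 6.45 to 11.1 CPM in WT. CDH17, at 1.39 and 1.74 CPM in FK sets 1 and 2, was at 0.281 to 0.794 CPM in FA and 0.367 to 1.66 CPM in WT, and MEP1A was at 1.65 CPM in FK set 2. VIL1, which is not particular to intestine, was at 11.5 and 15.1 CPM in FK sets 1 and 2 and made up most of the sums of these sets, against 0.878 CPM in FK set 3 and 1.04 to 2.53 CPM in WT.

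Fetal liver markers, 6 of 8 in the table, summed to 1028, 102 and 566 CPM in FA, 1048, 2627 and 297 CPM in FK and 4.38 to 8.62 CPM in WT. AFP made up most of the FA and FK sums, and AFP and GPC3 were higher in every FA and FK set than in any WT set. IGF2BP1, IGF2BP3 and DLK1 overlapped between FA and WT, and LIN28B was at 0 in FA, in FK set 3 and in WT. FA set 1 was close to FK set 1 in this sum through AFP, at 973 CPM in FA set 1 and 871 CPM in FK set 1. Of the 5 fetal markers tested, 4 were higher in FK sets 1 and 2 than in every other set, beside 22.0% of all genes, AFP being the exception. IGF2BP3 was at 10.9 and 17.2 CPM in these 2 sets, against at most 0.625 CPM elsewhere. IGF2BP1 was at 5.21 and 5.82 CPM there, against at most 0.687 CPM elsewhere. Macrophage markers, 8 of 10 in the table, summed to 319 to 421 CPM in FA, 524 to 777 CPM in FK and 588 to 796 CPM in WT. Of these, CD163, MARCO and VSIG4 were higher in FK sets 1 and 2 than in every other set, and the rest were not. CD163 was at 31.0 and 27.9 CPM in these 2 sets, against at most 1.3 CPM elsewhere. Cholangiocyte sums were 6.79 to 12.8 CPM in FA, 4.12 to 40.5 CPM in FK and 13.5 to 17.3 CPM in WT. Stellate sums were 66.1 to 87.1 CPM in FA, 97.6 to 176 CPM in FK and 113 to 140 CPM in WT, and endothelial sums 142 to 210 CPM in FA, 203 to 368 CPM in FK and 261 to 306 CPM in WT. The part of these cell types in the results was not tested.

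**Figure D4:**
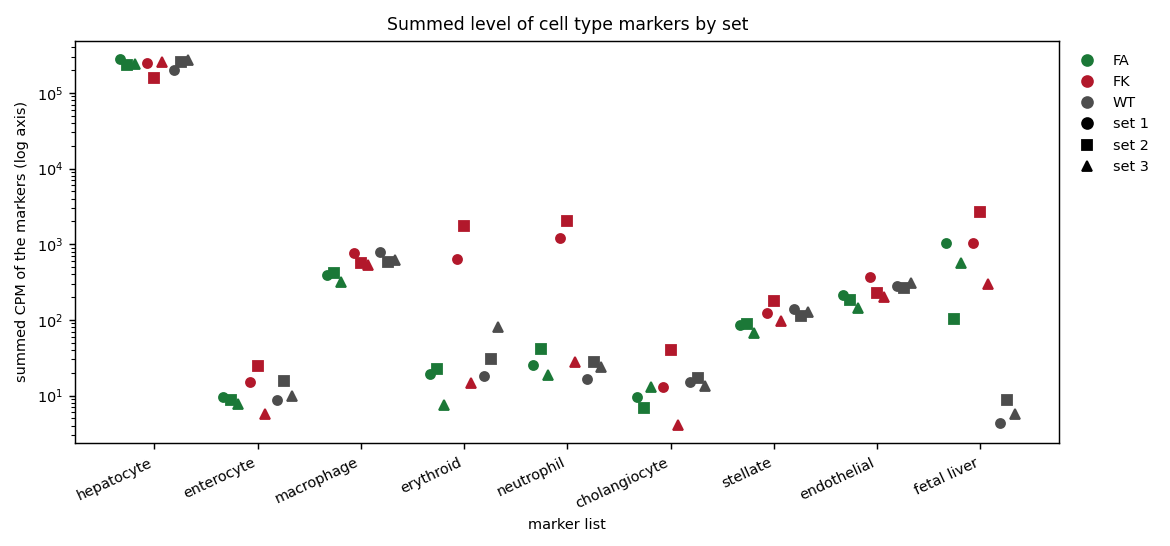
Summed CPM of the markers of each cell type (logarithmic axis) in the 3 sets of FA, FK and WT, with symbols for the set number. Neutrophil sums of 1195 and 2057 CPM set FK sets 1 and 2 apart, whereas hepatocyte sums, mostly ALB, lie between 159404 and 280188 CPM in all 9 sets.

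Further genes of the pathway were taken from 5 lists with 76 genes, of which 65 were in the table and passed the filter. These lists were chosen with earlier results of these data known. Their counts, medians and p-values are therefore a description and no independent support, above all for FK minus WT. Between FK and WT, 7 of the 65 passed edgeR's test, 1 higher and 6 lower in FK, beside 712 genes (4.77%) of the whole table. The median log2 difference of the 65 was -0.37, against 0.05 over all genes, and 47 of 65 lay below 0. With FK sets 1 and 2 left out this median was -0.32, against -0.05 over all genes. FA against WT gave 0 calls, a median of -0.09 and 39 of 65 below 0, and FA against FK gave 0 calls and a median of 0.36.

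By list, the medians of FK minus WT were -0.52 for 12 other apolipoproteins, -0.54 for 9 assembly and secretion genes, -1.23 for 13 efflux and remodelling genes, -0.48 for 11 uptake and lipolysis genes and -0.01 for 20 transcription regulators. With FK sets 1 and 2 left out, these medians were -0.36, 0.12, -0.80, -0.44 and -0.21 in that order. The fall of the assembly and secretion list was thus not seen in FK set 3. Genes of high density lipoprotein efflux and remodelling held 3 of the 7 calls and had 12 of 13 differences below 0. SCARB1, the receptor that takes up cholesterol from these particles, was at 117, 110 and 69.3 CPM in FA, 35.5, 55.7 and 67.6 CPM in FK and 158, 145 and 143 CPM in WT, and fell in FK by a log2 difference of -1.49 (SE 0.29, adjusted p = 0.0382). All 3 FK sets lay below all FA and WT sets. CYP27A1, the sterol 27-hydroxylase, was at 22.3, 29.5 and 91.8 CPM in FK and 249, 166 and 243 CPM in WT (log2 difference -2.20, SE 0.50, adjusted p = 0.0473). NR1H3, the oxysterol receptor LXR alpha that controls ABCA1, was at 22.4, 19.8 and 40.2 CPM in FK and 59.3, 82.1 and 63.9 CPM in WT (log2 difference -1.32, SE 0.30, adjusted p = 0.0472), although ABCA1 itself was highest in FK sets 1 and 2.

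Among the other lists, APOC4 fell in FK (log2 difference -1.69, SE 0.39, adjusted p = 0.0487), at 85.6, 80.1 and 196 CPM against 299, 483 and 390 CPM in WT. CIDEB, a lipid droplet protein of particle lipidation, fell by a log2 difference of -0.89 (SE 0.18, adjusted p = 0.0408), at 55.5, 63.9 and 49.9 CPM in FK and 107, 113 and 94.5 CPM in WT. SDC1, a heparan sulfate proteoglycan that binds remnant particles, was at 33.2, 32.9 and 50.9 CPM in FK and 93.1, 89.8 and 99.1 CPM in WT (log2 difference -1.27, SE 0.21, adjusted p = 0.0271). PPARGC1A, a coactivator of metabolic transcription, rose to 37.3, 29.1 and 23.5 CPM in FK, against 9.90, 9.89 and 14.9 CPM in WT (log2 difference 1.37, SE 0.23, adjusted p = 0.0314). For each of these 7 genes every FK set lay on one side of every WT set, FK set 3 included, beside 27.3% of all genes. The 7 genes were called on the same levels, so nothing is read from this. CIDEB was lowest in FK set 3. Every FA set lay on the same side of every WT set too for SDC1, CIDEB, CYP27A1, NR1H3, SCARB1 and PPARGC1A. For APOC4, FA and WT overlapped. SDC1 was at 57.6, 57.0 and 58.1 CPM in FA and CYP27A1 at 116, 138 and 119 CPM. None of the 7 genes passed edgeR's test between FA and WT.

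These 7 calls sit near the threshold. Each was lost when FK set 1, FK set 2 or any WT set was left out, in the fit of FK and WT alone and with the set number as a block, and, except for SDC1 without FA set 2, when an FA set was left out. Over all alternatives the adjusted p of these genes ran from 1.89e-08 to 0.265, and none changed sign. Without FK set 3, 34 of the 65 genes were called between FK and WT, 6 higher and 28 lower, beside 34.9% of all genes. The fit with FK sets 1 and 2 left out called 0, but there FK is 1 set and the spread comes from FA and WT. The differences in FK set 3 alone were still -1.10 for CIDEB, -1.17 for SCARB1 and -1.29 for CYP27A1.

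**Figure D5:**
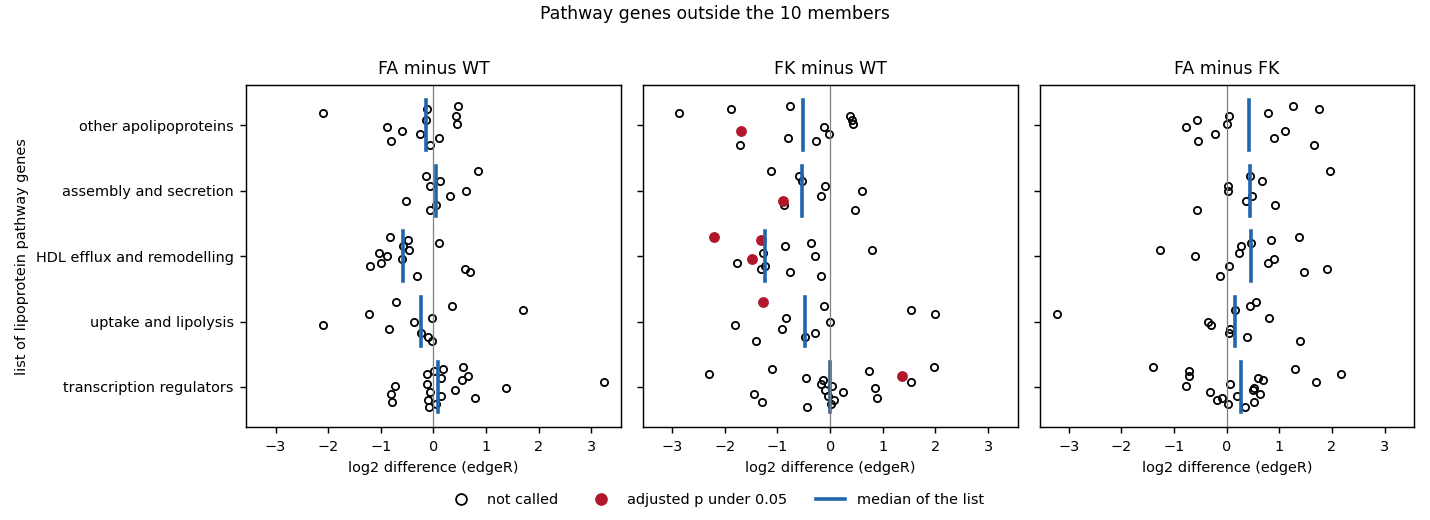
Fitted log2 differences of the 65 pathway genes by list (circles), for FA minus WT, FK minus WT and FA minus FK. Filled circles have an adjusted p under 0.05 and bars mark the median of a list; the 7 calls all belong to FK minus WT, where the efflux and remodelling list has a median of -1.23.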

How the data were processed

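Gene-level values of 36 libraries were analysed. They are estimated counts, whole numbers as deposited by the authors. Salmon 0.14.1 is listed, without a role, in the submitters' processing notes. No genome build and no handling of strand is given in the sources used here. Counts were summed over the 4 libraries of a set, giving 9 replicates of 53.2 to 78.6 M counts, and modelled jointly by edgeR 4.0.16 under R 4.3.3 (TMM scaling, filterByExpr, quasi-likelihood tests), adjusted by Benjamini-Hochberg over 14939 genes. A gene was called at an adjusted p under 0.05. The SE of a log2 difference is its absolute value divided by the square root of the F statistic of the quasi-likelihood test. For genes described without a test it is given as a measure of spread only.

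The members and gene lists were chosen with earlier results of these data known. Named were FAH, the 10 members, up to 5 called genes per pathway list and comparison, and the 5 genes most like APOA1 with at least 10 CPM in a group and no LOC identifier, using log2(CPM + 0.01). Of the listed genes, 6 were matched through a LOC identifier to RefSeq symbols. Neighbouring genes and cell markers are named by position or list, and other genes outside this rule are marked as chosen after their values were seen. The procedure was tested on simulated data.

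Results were recomputed with DESeq2 1.42.0, with RLE scaling, without a low-count filter or with a minimum of 1 CPM in 3 sets, from the 2 compared groups alone, with the set number as a replicate block, by limma 3.58.1 (voom) on 36 libraries, with each set left out in turn and, added after the data were seen, FK sets 1 and 2 left out. Figures used Python 3.11.15 and matplotlib 3.10.9.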

Additional observations from a re-analysis of the deposited data

How the results depend on the processing

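No normalization or filter tried changed a count of called members from 0. Genes called between FA and WT numbered 25, against 335 with DESeq2, 235 with only the compared groups, 3 with the replicate block, 440 on 36 libraries, 189 with FK sets 1 and 2 left out and 2 to 247 with 1 set left out. For FK and WT the 712 calls became 2706, 43, 47, 2448, 77 and 22 to 5396 in that order. For FA and FK the 0 calls became 1778 with DESeq2, 2169 on 36 libraries and 0 to 5324 with 1 set left out, the highest without FK set 3. Of the 9 members tested, 1 was called between FA and WT on 36 libraries. Between FA and FK, 2 were called with DESeq2, 6 on 36 libraries and 0 to 5 with 1 set left out, and nothing is read from these. DESeq2 tested 19913 genes and the fit on 36 libraries 12775, and the calls over all genes are those given above.

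Pathway calls were 0 between FA and WT, against 1 with DESeq2, 1 with only the compared groups, 8 on 36 libraries, 0 to 1 with 1 set left out and 1 with FK sets 1 and 2 left out. Between FK and WT 7 became 15 with DESeq2, 0 with only the compared groups, 0 with the replicate block, 30 on 36 libraries, 0 to 34 with 1 set left out and 0 with FK sets 1 and 2 left out. Between FA and FK 0 became 7 with DESeq2, 27 on 36 libraries and 0 to 30 with 1 set left out. The calls over all genes in the same fits are given above, of 19913 genes with DESeq2 and 12775 on 36 libraries. The difference of APOA4 between FA and FK turned to 0.19 with FK sets 1 and 2 left out. With 1 set left out, differences near 0 changed sign: APOH ran from -0.05 to 0.30 and APOM from -0.10 to 0.24 between FA and WT, APOH from -0.02 to 0.47 between FA and FK, and ABCA1 from -0.38 to 0.08 between FA and WT. The cause was not tested. With FK sets 1 and 2 left out, FK is 1 set assumed to vary like the FA and WT sets. Set numbers from the titles were not treated as pairs, except in the replicate block. Deviations of sets with the same number correlated at r = -0.087 to 0.099 over 9 pairs, and of sets with other numbers at -0.095 to 0.115 over 18. Deviations within a group sum to 0, so these values cannot exclude a pairing. Each member had at least 1042 counts in every set, so counting error is small beside the spread between sets.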

Other observations

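Several pathway genes that passed no test in the fit of all 9 sets had far lower levels in FK sets 1 and 2 than in any other set. They were picked with these values in view. PON1, an antioxidant enzyme carried on high density lipoproteins, was at 2793, 2004 and 2278 CPM in FA, 42.2, 11.8 and 2029 CPM in FK and 2042, 2883 and 2810 CPM in WT. PON3, its paralog, was at 2674, 1956 and 2224 CPM in FA, 486, 330 and 2072 CPM in FK and 1581, 1787 and 1568 CPM in WT. CES1, a hepatic carboxylesterase matched through a LOC identifier, was at 6299 to 8199 CPM in FA, 61.5, 162 and 5373 CPM in FK sets 1, 2 and 3 and 3726 to 4400 CPM in WT. Similar carboxylesterase copies make its estimated counts uncertain.

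ABCG5 and ABCG8, whose products together pump sterols into bile, were nearly without counts in FK sets 1 and 2. ABCG5 had 2515 to 6163 counts in FA, 3, 5 and 3920 counts in FK sets 1, 2 and 3 and 2283 to 2433 counts in WT. ABCG8 had 1710 to 5238 counts in FA, 2, 2 and 2091 counts in FK and 1716 to 2002 counts in WT. In the fit of all 9 sets the differences of FK minus WT were -0.77 (adjusted p = 0.812) for ABCG5 and -1.31 (adjusted p = 0.664) for ABCG8 by edgeR. Without FK set 3 these differences were -9.21 for ABCG5 and -9.8 for ABCG8, a description since both genes were picked on these levels.

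CLU, or apolipoprotein J and likewise picked with its values in view, was lower in both groups than in WT, at 73.4, 348 and 165 CPM in FA, 11.8, 18.4 and 311 CPM in FK and 1065, 572 and 864 CPM in WT. No FA or FK set overlapped a WT set. The log2 difference was -2.09 (SE 1.14, adjusted p = 0.581) for FA minus WT and -2.87 (SE 1.18, adjusted p = 0.161) for FK minus WT by edgeR.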
